A study of Homo sapiens with 9 samples.

Results

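The genes described here encode the SR proteins and hnRNP proteins, the 2 large families of nuclear RNA-binding proteins that set where the spliceosome cuts a transcript, together with a few factors that recognise the 3′ splice site. Members were the protein-coding genes whose symbol begins with SRSF or HNRNP, plus TRA2A, TRA2B, PTBP1, PTBP2, SF3B1, U2AF1 and U2AF2. The rule uses names and no measured value. It found 46 genes among the 60671 in the files, of which 12 are SRSF genes, 2 are TRA2 genes, 29 carry the HNRNP prefix or are PTBP genes, and 3 (SF3B1, U2AF1 and U2AF2) act at the 3′ splice site. A further 138 genes with these prefixes are not protein-coding and were left out.

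Expression was measured by sequencing poly-A selected RNA of H295R cells, an adrenocortical carcinoma line used as a model of steroid production. There were 3 libraries of unmodified cells (WT), 3 of cells in which SGPL1 was knocked out (KO) and 3 labelled as overexpressing SGPL1 (OE), all grown in the same serum-supplemented medium without treatment. SGPL1 encodes sphingosine-1-phosphate lyase. The design compares each modified line with WT. The sources used here do not give the site and kind of edit, the construct, or whether a line is 1 clone. The series describes the libraries of a group as biological replicates, but not whether they came from separate cultures, so the p-values reflect a spread that may be technical.

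SR proteins bind exonic enhancers through RNA recognition motifs and recruit spliceosome components through a domain rich in arginine and serine. hnRNP proteins coat nascent transcripts and often act in the other direction, as silencers that keep a splice site from being used. Many of these genes hold "poison" exons, whose inclusion sends the transcript to nonsense-mediated decay, so that a protein limits its own mRNA. U2AF1 and U2AF2 read the 3′ splice site, and SF3B1, part of the U2 particle, holds the branch point beside it.

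Library totals ran from 8006873 to 10895080 counts. SGPL1 itself was at 102, 83.4 and 98.1 CPM (the count scaled to the effective library size) in WT, 47.2, 43.9 and 53.8 in KO, with 98.1, 81.3 and 101 in OE. It was therefore lower in the KO libraries (log2 fold change -0.97 ± 0.14 SE, adjusted p = 0.000105), while the libraries labelled OE were not called against WT in SGPL1 (-0.011 ± 0.14, adjusted p = 0.966). Every direction given below for OE belongs to the libraries labelled OE. The 12 adrenocortical markers summed to between 5279 and 6007 CPM for WT, 8800.5 and 10822 for KO and 7018 and 8154 for OE, and their part in the results below was not tested. The sum does not speak for each marker. DLK1 alone was at 2470 to 2824 CPM in WT, 4927 to 6303 in KO and 2877 to 3274 in OE. CYP17A1 was lower in KO, at 56.1 to 64.1 CPM, than in WT, at 66.1 to 70.1. Markers of fibroblasts, epithelium, leukocytes and endothelium were low in every library, with summed levels of at most 33.6 CPM, and the defining leukocyte markers PTPRC and CD3E had no count. In bulk RNA, fewer cells of a kind and less RNA per cell cannot be told apart.

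Of the 46 members, 41 had enough counts to be tested, in a set of 14150 genes. The other 5 (HNRNPCL1, HNRNPCL2, HNRNPCL3, HNRNPCL4 and the read-through gene HNRNPUL2-BSCL2) had no count in any library. HNRNPUL2-BSCL2 shares 100% of its exon bases with HNRNPUL2 and BSCL2, and reads touching more than 1 gene were not counted, so its level is unknown. Per kilobase of summed exon length, HNRNPA1 had the highest WT level, 348 ± 14.6 CPM per kb (SD, n = 3). HNRNPK followed at 211 ± 8.22, and HNRNPA2B1 at 138 ± 5.59. HNRNPC (129.6 ± 11.6), HNRNPAB (129 ± 7.79) and HNRNPA3 (129 ± 3.88) came next, and these 3 and HNRNPA2B1 did not differ beyond their spread. SRSF3 was the highest SR gene at 94.95 ± 14.5 CPM per kb, ahead of SRSF2 (63.4 ± 7.21) and SRSF7 (57.3 ± 6.33), which overlapped within their spread. The lowest of the tested members were PTBP2 (2.16 ± 0.224), U2AF1 (0.719 ± 0.558) and SRSF12 (0.367 ± 0.0815). With the longest coding transcript as the length in place of all exons, the first 4 ranks were held by the same 4 genes, and the lowest 3 by the same 3 in another order.

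Together the members took 1.45% to 1.54% of all counts in the 6 WT and KO libraries and 1.29% to 1.36% in the OE libraries. The SR genes took 0.214%, 0.238% and 0.205% of the WT libraries, 0.233%, 0.226% and 0.239% of the KO libraries and 0.242%, 0.268% and 0.266% of the OE libraries. The hnRNP genes took 1.19%, 1.13% and 1.19% of the WT libraries, 1.16%, 1.18% and 1.20% of the KO libraries and 0.963%, 0.938% and 0.999% of the OE libraries. The ratio of SR to hnRNP counts was thus 0.172 to 0.211 in WT, 0.192 to 0.200 in KO and 0.252 to 0.286 in OE, with no OE library inside the range of the others. These shares and ratios are not corrected for transcript length, which is taken up below. The map of all tested members shows each library beside the WT mean.

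**Figure D1:**
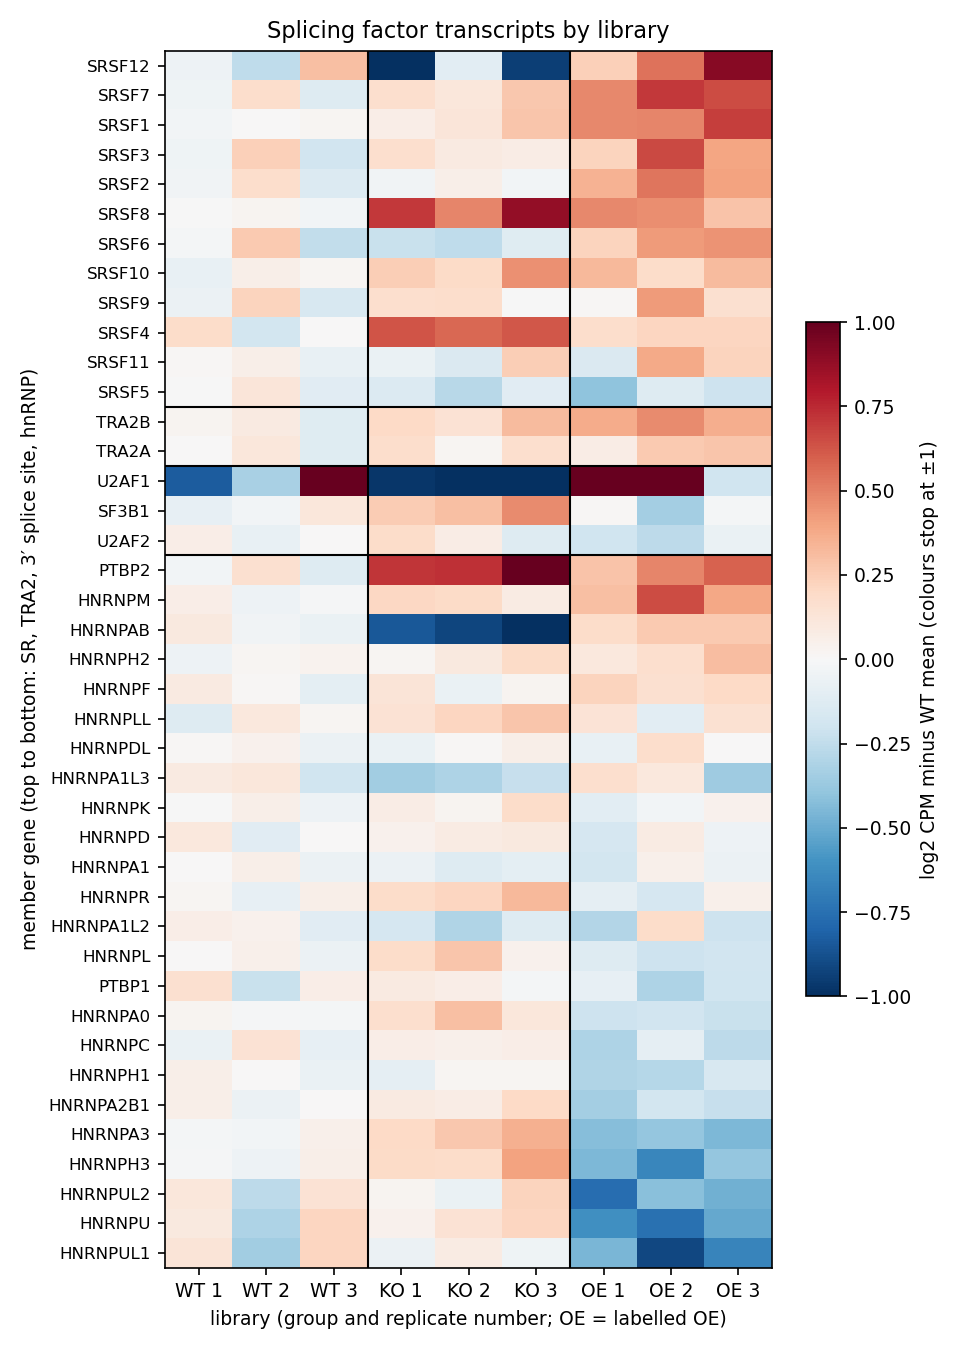
Log2 CPM of the 41 tested members (rows) in the 9 libraries (columns), minus the WT mean of each gene, with colours that stop at 1 in either direction. In OE most SR rows are red and the lower hnRNP rows are blue, while KO differs from WT in few rows, among them SRSF4, SRSF8, PTBP2 and HNRNPAB.

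A gene was called when its adjusted p (edgeR quasi-likelihood test, Benjamini-Hochberg over all 14150 genes) was under 0.05. In KO against WT, 3 of 41 members were called higher, where 9.16% of all genes tested were, and 1 was called lower, where 9.6% were. The groups' libraries did not overlap for 18 members, against 35.2% of all genes. In OE against WT, 8 members were called higher (9.65% of all genes) and 5 lower (11% of all genes), and 22 did not overlap (36.4% of all genes). In OE against KO, 8 members were called higher (19% of all genes) and 12 lower (20.6% of all genes), and 27 did not overlap (51.7% of all genes). As shares of the 41 members, the calls were 7.32% higher and 2.44% lower in KO against WT. They were 19.5% higher and 12.2% lower in OE against WT, and 19.5% higher and 29.3% lower in OE against KO. The shares higher in KO against WT, lower in OE against WT and higher in OE against KO are thus close to those of all genes. The other OE shares are above those of all genes, and the share lower in KO against WT, 1 member, is below. The share lower in OE against KO depended on a correction for transcript length, described below. It was 14.6%, under the 18.1% of all genes, with summed exon length, and 24.4%, over the 17.8% of all genes, with the longest coding transcript. The share higher there became 26.8% with the former, where 19.6% of all genes were, and stayed at 19.5% with the latter, where 19.2% were. The median log2 fold change of the members was 0.10 in KO against WT, 0.037 in OE against WT and -0.065 in OE against KO, beside -0.0071, -0.010 and -0.0044 over all genes tested. The 3 comparisons share libraries in pairs, so they are not independent of one another.

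The number called higher in OE against WT changed when single libraries were left out. It fell to 3 of 41 without WT replicate 1, to 4 without WT replicate 3 and to 5 without OE replicate 2, while all genes called higher fell from 1365 to 557, 485 and 817. As shares, 7.32%, 9.76% and 12.2% of the members were called, beside 3.85%, 3.35% and 5.61% of all genes. The SR median in these 3 fits was 0.37, 0.31 and 0.34, beside 0.39 with all libraries. The 8 called higher in OE against KO became 5 without OE replicate 3, where 16.4% of all genes were, beside 19% with all libraries. In KO against WT, the 3 called higher became 5 without OE replicate 2, where 10.8% of all genes were, beside 9.16% with all libraries. The 1 called lower became 2 (HNRNPAB and U2AF1) without WT replicate 1 or any 1 OE replicate. Of all genes, 6.38% were lower without WT replicate 1 and 9.20%, 11.3% and 8.80% without OE replicates 1, 2 and 3, beside 9.6% with all libraries. With library totals alone as the scaling, OE against WT had 3 members higher and 11 lower, and the median over all genes was -0.13. These were 7.32% and 26.8% of the members, beside 5.41% and 15.5% of all genes. This scaling shifts all genes alike, and on it the SR median was 0.26 and the hnRNP median -0.21.

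**Figure D2:**
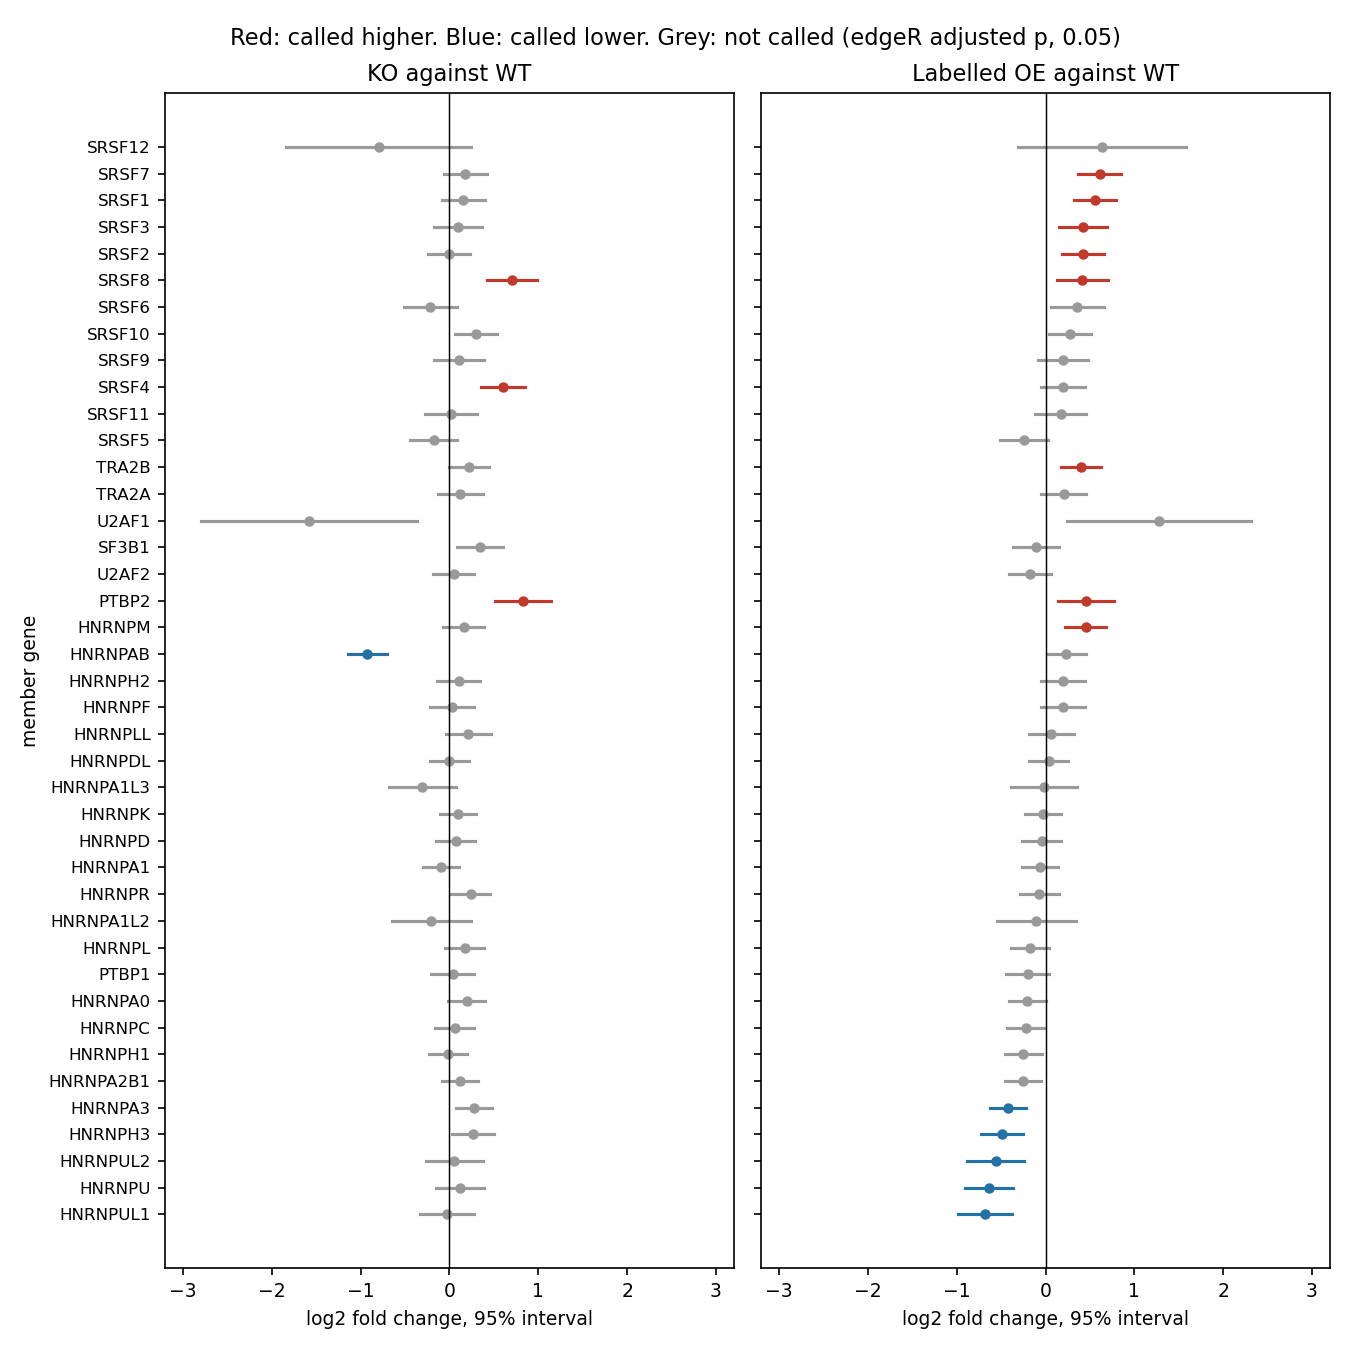
Log2 fold change (x axis) of the 41 tested members (y axis) in KO against WT and in OE against WT, as points with 95% intervals from edgeR. Members called higher are red, members called lower blue and the rest grey: 3 red and 1 blue in KO, 8 red and 5 blue in OE.

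Among the 12 SR genes, 5 rose in OE against WT and 0 fell, beside 9.65% and 11% of all genes. Their median log2 fold change was 0.39, and 11 of the 12 lay above zero. Against KO the median was 0.24, with 5 called higher and 1 lower, beside 19% and 20.6% of all genes. For KO against WT it was 0.10, with 2 called higher and 0 lower, beside 9.16% and 9.6%. The 3 SR genes called higher in OE against each of the other groups were SRSF7, SRSF1 and SRSF2.

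SRSF7, an SR protein with a zinc knuckle that also takes part in mRNA export, was at 225, 260.4 and 211 CPM in WT, 259.9, 249 and 278 in KO, with 322, 377 and 363 in OE. Every OE library lay above every WT and KO library. Its log2 fold change was 0.61 ± 0.11, adjusted p = 0.00206 against WT and 0.43 ± 0.11, adjusted p = 0.00634 against KO. SRSF1, the founding SR protein and a proto-oncogene, was at 126, 129 and 130.2 CPM in WT, 134, 139.7 and 156 in KO, with 179, 181 and 207 in OE. The OE libraries were again the highest 3, and the KO libraries lay between them and WT. The change was 0.56 ± 0.11, adjusted p = 0.00336 against WT, and against KO it was 0.40 ± 0.11, adjusted p = 0.00947, a call lost without OE replicate 3 (0.33, adjusted p = 0.0615). SRSF1 shares 35.1% of its exon bases with AC015813.2 and AC015813.5, and reads in that stretch were not counted, so its level is uncertain.

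SRSF2, which binds exonic enhancers of many sequences, was at 183, 212 and 170.5 CPM in WT, 184, 196 and 184 in KO, with 239, 271 and 248 in OE. WT and KO overlapped, and all OE libraries were higher. The change in OE was 0.42 ± 0.11, adjusted p = 0.0156 against WT and 0.43 ± 0.11, adjusted p = 0.00659 against KO. The adjusted p against WT became 0.0723 without WT replicate 1 and 0.089 without WT replicate 3. SRSF2 shares 35.8% of its exon bases with MFSD11 and MIR636, and reads in that stretch were not counted for either gene, so its level is uncertain.

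SRSF3, the smallest SR protein, was at 650.1, 789 and 588 CPM in WT, 753, 714 and 706 in KO, with 783, 1060.3 and 879.7 in OE. OE replicate 1 lay below WT replicate 2, so the groups overlapped. The change was 0.43 ± 0.13, adjusted p = 0.0266 against WT, and its adjusted p became 0.106 without WT replicate 1, 0.133 without WT replicate 3, 0.0853 without OE replicate 2 and 0.0504 without OE replicate 3. SRSF3 against KO missed the threshold (0.33 ± 0.13, adjusted p = 0.0515).

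SRSF4 and SRSF8 were the SR genes that rose in KO. SRSF4, one of the longer SR proteins, was at 124, 96.6 and 109.6 CPM in WT, 169.8, 163 and 169 in KO, with 123, 127 and 127 in OE. The 3 KO libraries stood above all others. It was higher in KO than in WT (0.60 ± 0.12, adjusted p = 0.00148) and lower in OE than in KO (-0.41 ± 0.12, adjusted p = 0.0104), and OE against WT was not called (0.19 ± 0.12, adjusted p = 0.254). SRSF8, a retrogene copy of SRSF2, was at 49.0, 50.1 and 48.2 CPM in WT, 80.3, 68.9 and 90.7 in KO, with 68.7, 67.8 and 59.9 in OE. All KO and all OE libraries were above all WT libraries. The change was 0.70 ± 0.13, adjusted p = 0.00134 in KO and 0.41 ± 0.13, adjusted p = 0.0392 in OE, both against the same WT libraries, and OE against KO was not called (-0.29 ± 0.13, adjusted p = 0.095). The OE call was lost without any 1 of WT replicates 1 and 3, KO replicate 1 and the 3 OE replicates, with an adjusted p of 0.0501 to 0.122.

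SRSF6 and SRSF12 differed between the modified lines without a call against WT. SRSF6, a regulator of wound-healing and tau splicing, was at 64.0, 78.0 and 54.6 CPM in WT, 55.5, 54.2 and 59.7 in KO, with 75.9, 87.4 and 88.6 in OE. WT spanned much of the range between KO and OE, and OE against KO was 0.57 ± 0.14, adjusted p = 0.0046. SRSF12, a low-expressed relative of SRSF10 that counters other SR proteins, had 14, 11 and 18 counts in the WT libraries, 5, 14 and 7 in those of KO, then 18, 18 and 35 in those of OE. Its OE against KO value was 1.43 ± 0.47, adjusted p = 0.0235, with an adjusted p of 0.0913 without KO replicate 1, 0.0902 without KO replicate 3 and 0.109 without OE replicate 3.

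The other SR genes were SRSF5, SRSF9, SRSF10 and SRSF11, none called in any comparison before alternative settings were tried. SRSF10, a repressor when dephosphorylated, was at 0.28 with a 95% interval from 0.040 to 0.51 in OE against WT and at 0.30 (adjusted p = 0.0719) in KO against WT. KO against WT called it higher with a block for replicate number, and without the second WT and second OE libraries. With the length corrections SRSF10 was called in OE against WT, at 0.58 (adjusted p = 0.00138) by summed exons and 0.31 (adjusted p = 0.0282) by the longest coding transcript. SRSF5 was the 1 SR gene below zero in OE against WT, at -0.24 (adjusted p = 0.186). Library totals alone called it lower there, at -0.37 (adjusted p = 0.045). SRSF9 and SRSF11 had intervals that covered zero in all comparisons, and SRSF9 shares 46.7% of its exon bases with GATC, whose shared reads were left out.

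The TRA2 proteins are SR-like activators that bind purine-rich enhancers. TRA2B was at 235, 245 and 212 CPM in WT, 264, 255 and 287 in KO, with 297, 319 and 297 in OE. Each OE library lay above each KO library and each WT library. It rose in OE against WT (0.40 ± 0.11, adjusted p = 0.0149), with an adjusted p of 0.0531 without WT replicate 1 and 0.085 without WT replicate 3, and was not called in KO against WT (0.22 (adjusted p = 0.168)) or OE against KO (0.18 (adjusted p = 0.191)). Against KO it was called at 0.63 (adjusted p = 0.000554) with the correction by summed exons, and not at 0.13 (adjusted p = 0.265) with the longest coding transcript. TRA2A was at 96.7, 104 and 88.7 CPM in WT, 109, 97.7 and 108 in KO, with 101, 116 and 117 in OE. Its groups overlapped throughout, and no comparison called it (0.12 (adjusted p = 0.537) in KO and 0.21 (adjusted p = 0.237) in OE against WT).

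**Figure D3:**
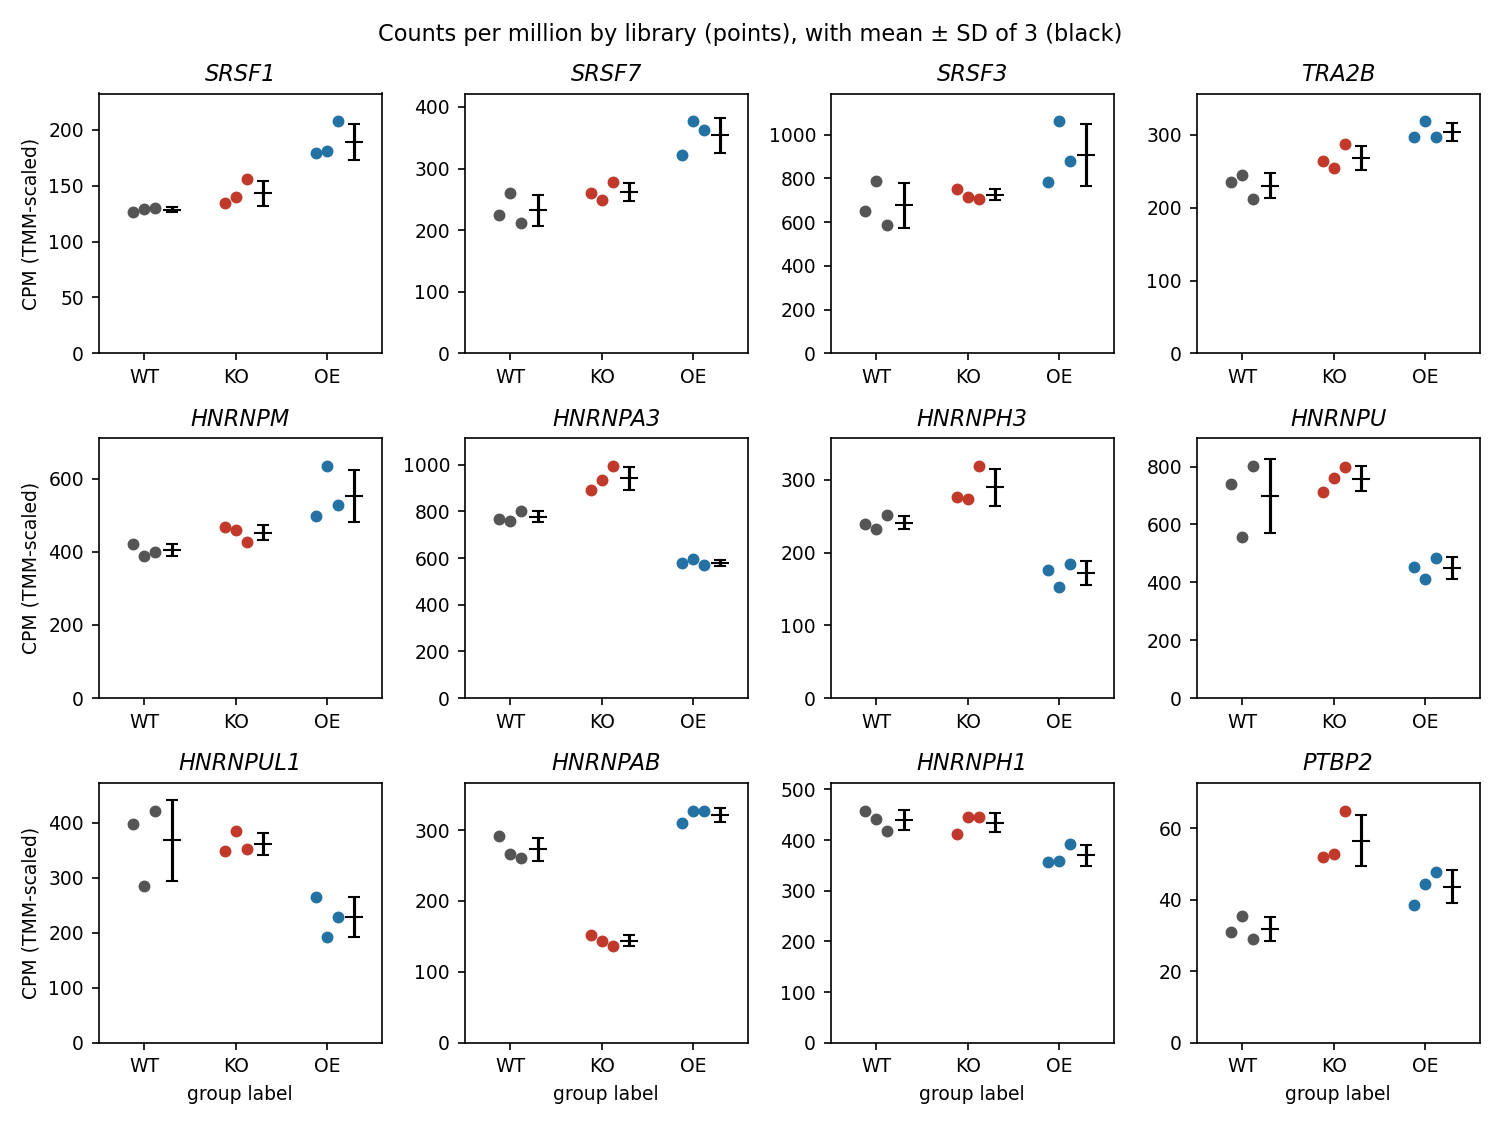
CPM (y axis, from 0) in each library (points) of 12 members by group label (x axis), with the mean and SD of 3 libraries in black. SRSF1, SRSF7, SRSF3, TRA2B and HNRNPM are highest in OE, HNRNPA3, HNRNPH3, HNRNPU and HNRNPUL1 lowest in OE, HNRNPAB lowest in KO and PTBP2 lowest in WT.

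Of the 24 hnRNP genes tested, 2 rose and 5 fell in OE against WT, beside 9.65% and 11% of all genes, and 17 were not called. Their median was -0.087, beside -0.010 over all genes. Against KO the median was -0.23, with 2 called higher and 10 lower, beside 19% and 20.6% of all genes. For KO against WT it was 0.084, with 1 called in each direction, beside 9.16% and 9.6%. The 5 that fell against WT belong to 3 subfamilies, those of HNRNPA, HNRNPH and HNRNPU.

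The HNRNPU subfamily holds scaffold proteins that bind both RNA and chromatin. HNRNPU was at 739, 556 and 802 CPM in WT, 713, 762 and 799.8 in KO, with 452, 412 and 485 in OE. Every OE library was below every WT and KO library, and WT replicate 2 was the lowest of the other 6. The change was -0.64 ± 0.13, adjusted p = 0.00314 against WT and -0.75 ± 0.13, adjusted p = 0.000251 against KO. HNRNPUL1, which has also been tied to DNA end resection, was at 397, 285 and 422 CPM in WT, 348, 385 and 353 in KO, with 265, 193 and 229 in OE. WT replicate 2 was again low, and all OE libraries were lower still. It fell in OE against WT (-0.68 ± 0.15, adjusted p = 0.00451) and against KO (-0.66 ± 0.15, adjusted p = 0.00195).

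HNRNPUL2 was at 63.1, 48.4 and 64.5 CPM in WT, 59.2, 55.5 and 67.9 in KO, with 34.2, 43.6 and 41.7 in OE, with OE the lowest 3. The change was -0.56 ± 0.15, adjusted p = 0.0174 against WT and -0.61 ± 0.15, adjusted p = 0.00459 against KO. Its adjusted p against WT became 0.0828 without WT replicate 1, 0.0857 without WT replicate 3 and 0.0703 without OE replicate 1. Its exons share 44.3% of their bases with the read-through gene HNRNPUL2-BSCL2, and reads there were not counted, so the level is partial.

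The HNRNPA proteins are abundant shuttling silencers. HNRNPA1, the best-studied antagonist of SRSF1 at splice sites, was at 1773, 1843 and 1695 CPM in WT, 1697, 1617 and 1652 in KO, with 1559.9, 1834 and 1696 in OE. No comparison called it, and its change was -0.10 with a 95% interval from -0.30 to 0.11 in KO and -0.062 with a 95% interval from -0.26 to 0.14 in OE against WT. HNRNPA3 was at 767, 760.4 and 804 CPM in WT, 894, 936 and 994 in KO, with 578, 595 and 569.8 in OE. The order was OE, WT, KO from lowest to highest, with no overlap between groups. HNRNPA3 fell in OE against WT (-0.42 ± 0.095, adjusted p = 0.00649) and against KO (-0.70 ± 0.10, adjusted p = 3.96e-05), and KO against WT missed the threshold (0.28 ± 0.095, adjusted p = 0.0512). KO against WT passed it with DESeq2, limma-voom, the replicate block and the correction by summed exons. It also passed without OE replicate 2, and without the second WT and second OE libraries. HNRNPA3 counts were 43.2%, 41.3% and 47.4% of HNRNPA1 counts in WT, 52.7%, 57.9% and 60.2% in KO, with 37.0%, 32.5% and 33.6% in OE. Since 25.7% of the 50-base windows of HNRNPA1 transcripts and 17.3% of those of HNRNPA3 also occur at other loci, and multiply mapped reads were left out, their levels are uncertain.

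HNRNPA0 and HNRNPA2B1 were called in OE against KO alone, at -0.40 ± 0.10, adjusted p = 0.0041 and -0.37 ± 0.10, adjusted p = 0.00537. Against WT they were at -0.21 (adjusted p = 0.149) and -0.25 (adjusted p = 0.0697), where library totals alone called both lower, at -0.33 (adjusted p = 0.0261) and -0.38 (adjusted p = 0.00706), and DESeq2 and the replicate block called HNRNPA2B1 lower. The OE against KO call of HNRNPA0 was lost under both length corrections, at -0.13 (adjusted p = 0.332) with summed exons and, with the sign turned, 0.12 (adjusted p = 0.41) with the longest coding transcript. The HNRNPA1 relatives HNRNPA1L2 and HNRNPA1L3 were low, at 9.37 ± 0.654 and 21.2 ± 2.52 CPM in WT (SD, n = 3), and 53.3% and 49.2% of their windows occur elsewhere.

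The HNRNPH and HNRNPF proteins bind runs of G. HNRNPH3 was at 239.6, 233 and 251 CPM in WT, 276, 274 and 319 in KO, with 177, 153 and 185 in OE. As with HNRNPA3, the groups did not overlap and ran OE, WT, KO from low to high. It fell in OE against WT (-0.49 ± 0.11, adjusted p = 0.007) and against KO (-0.76 ± 0.11, adjusted p = 8.57e-05), with KO against WT at 0.26 (adjusted p = 0.115). Its relatives HNRNPH1, HNRNPH2 and HNRNPF were not called in any comparison before alternative settings were tried. In OE against WT they were at -0.25 (adjusted p = 0.0883), 0.20 (adjusted p = 0.24) and 0.20 (adjusted p = 0.256). Library totals alone called HNRNPH1 lower in OE against WT, at -0.37 (adjusted p = 0.0165), and in OE against KO.

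HNRNPM and PTBP2 were the hnRNP genes that rose in OE. HNRNPM, a regulator of splicing in epithelial-mesenchymal transition, was at 422, 389 and 401 CPM in WT, 467, 460.1 and 428 in KO, with 499, 634 and 527 in OE. The OE libraries were the highest, with OE replicate 2 well above the other 2. The change was 0.45 ± 0.11, adjusted p = 0.00948 against WT and 0.29 ± 0.11, adjusted p = 0.0437 against KO. The call against KO was lost in 6 of the leave-one-library-out fits, those without WT replicate 1, any KO replicate, OE replicate 2 or OE replicate 3 (adjusted p 0.0609 to 0.141).

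The PTBP proteins bind pyrimidine-rich tracts and repress exons, PTBP1 in most cells and PTBP2 in neurons. Outside neurons, PTBP1 keeps PTBP2 mRNA low by making it skip an exon. PTBP2 was at 31.1, 35.3 and 28.9 CPM in WT, 52.0, 52.7 and 64.8 in KO, with 38.6, 44.4 and 47.7 in OE. In CPM all KO libraries lay above all OE libraries, and these above all WT libraries. PTBP2 rose in KO (0.83 ± 0.15, adjusted p = 0.000816) and in OE (0.46 ± 0.15, adjusted p = 0.0411) against the same WT libraries, and OE against KO was -0.38 ± 0.15, adjusted p = 0.0525. The sign of OE against KO turned under the length corrections, to 0.12 (adjusted p = 0.577) with summed exons and 0.32 (adjusted p = 0.15) with the longest coding transcript, and OE against WT became 0.82 (adjusted p = 0.00189) and 0.94 (adjusted p = 0.000717). The adjusted p in OE became 0.125 without WT replicate 1, 0.165 without WT replicate 3, 0.0632 without KO replicate 2, 0.0688 without OE replicate 2 and 0.145 without OE replicate 3. PTBP1 was at 471, 361 and 442 CPM in WT, 449, 442 and 415 in KO, with 399, 341 and 367 in OE. It overlapped between WT and each modified group and was not called (0.036 (adjusted p = 0.869) in KO, -0.20 (adjusted p = 0.231) in OE). PTBP2 counts were 6.60%, 9.79% and 6.54% of PTBP1 counts in WT, 11.6%, 11.9% and 15.6% in KO, with 9.67%, 13.0% and 13.0% in OE, where OE replicate 1 falls just inside the WT range.

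HNRNPAB, a relative of HNRNPD that binds AU-rich RNA, had the largest change among the 4 members called in KO against WT. It was at 292, 266 and 261 CPM in WT, 152, 144 and 136 in KO, with 309, 327 and 327 in OE. Every KO library was far below every other library. Its level in KO was 0.527 of that in WT (log2 fold change -0.92 ± 0.10, adjusted p = 1.10e-05). The log2 fold change in OE against KO was 1.16 ± 0.10, adjusted p = 7.38e-07, and in OE against WT it was 0.23 (adjusted p = 0.118).

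Chromosome neighbours of HNRNPAB moved in the same way. It lies at chr5:178204533-178211163 (GRCh38), and the 50 nearest tested genes, 25 on each side, had a median log2 fold change of -0.998 in KO against WT, with 46 of the 50 below zero. In OE against WT their median was -0.012. HNRNPH1 lies nearby at chr5:179614178-179634784, and its 46 neighbours had a median of -1.004 with 43 below zero, but HNRNPH1 itself was at 458, 441 and 418 CPM in WT, 413, 445 and 445 in KO, with 357, 359 and 393 in OE. The WT and KO libraries of HNRNPH1 overlapped, and its change was -0.016 with a 95% interval from -0.23 to 0.20. PTBP1, near the end of chromosome 19, had neighbours at -0.42 and its own value at 0.036. The KO rises of PTBP2, SRSF8 and SRSF4 had neighbours at 0.18, 0.079 and -0.15. What moved these neighbourhoods, and its part in the HNRNPAB value, was not tested.

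**Figure D4:**
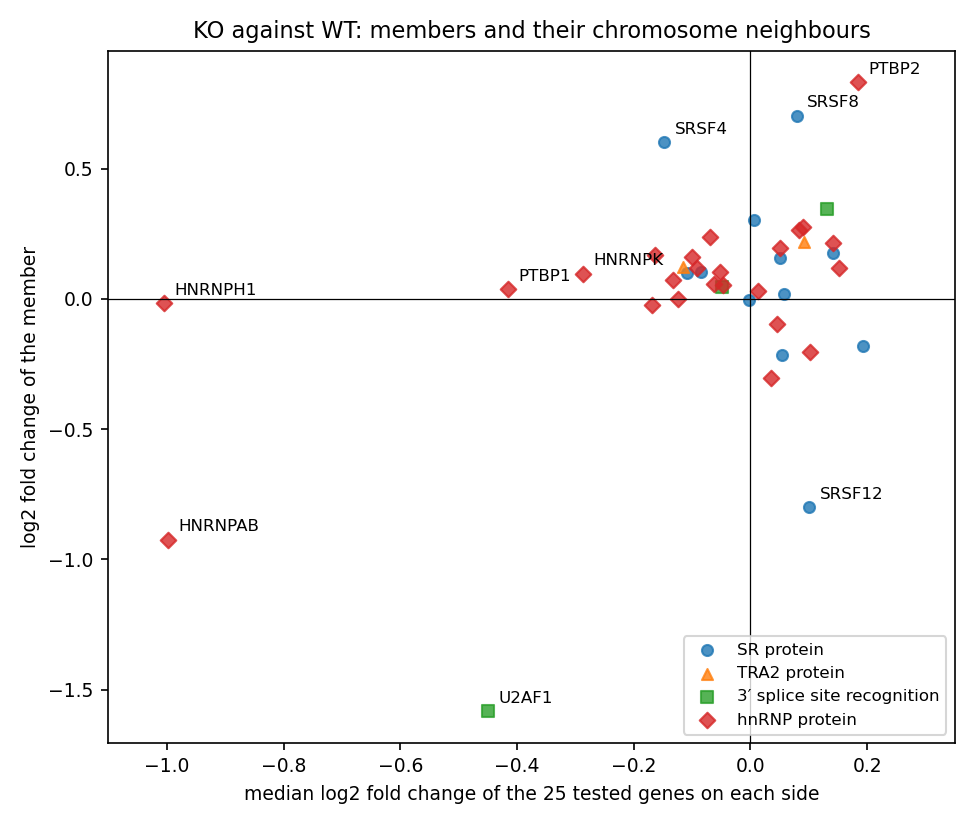
Log2 fold change in KO against WT of each tested member (y axis) against the median of the up to 25 tested genes on each side of it on the chromosome (x axis), with symbols by family. HNRNPAB and HNRNPH1 have neighbours at -0.998 and -1.004, where HNRNPAB lies at -0.92 and HNRNPH1 at -0.016.

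The remaining hnRNP genes were HNRNPC, HNRNPD, HNRNPDL, HNRNPK, HNRNPL, HNRNPLL and HNRNPR. HNRNPL, a reader of CA repeats, fell in OE against KO (-0.35 ± 0.10, adjusted p = 0.0127), a call lost without KO replicate 2 (adjusted p = 0.0817). HNRNPR (-0.31 ± 0.10, adjusted p = 0.0256) and HNRNPC, which binds runs of U (-0.28 ± 0.10, adjusted p = 0.0417), fell as well. HNRNPR was not called under either length correction and turned to 0.15 (adjusted p = 0.186) with the longest coding transcript. Of these calls, HNRNPR was lost without KO replicate 2, KO replicate 3, OE replicate 1 or OE replicate 2 (adjusted p 0.0639 to 0.0946), and HNRNPC without WT replicate 1, any KO replicate, OE replicate 1 or OE replicate 3 (0.059 to 0.131). HNRNPD, HNRNPDL, HNRNPK and HNRNPLL were not called anywhere, and their OE against WT values lay between -0.045 and 0.065.

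At the 3′ splice site, SF3B1 was at 187, 194 and 215 CPM in WT, 237, 245 and 275 in KO, with 200.4, 157 and 196 in OE. All KO libraries were above all WT and OE libraries. SF3B1 in OE against KO was -0.45 ± 0.12, adjusted p = 0.00733, and KO against WT missed the threshold (0.34 ± 0.12, adjusted p = 0.0578), though it passed without OE replicate 2 (adjusted p = 0.0237). OE against WT was at -0.11 (adjusted p = 0.57), and at 0.15 (adjusted p = 0.316) and 0.16 (adjusted p = 0.23) under the length corrections. U2AF2, the large subunit, overlapped between groups and was at 0.047 (adjusted p = 0.821) in KO and -0.18 (adjusted p = 0.277) in OE against WT.

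U2AF1, the small subunit, has counts that cannot be taken at face value. The GRCh38 assembly carries a second copy, U2AF1L5, at chr21:6484623-6499261, beside U2AF1 at chr21:43092956-43107570. The coding sequences of both are 720 bases long and differ at 0 positions, and 93.3% of the 50-base windows of U2AF1 transcripts occur at another locus. The first 120 coding bases, with the start codon in capitals, are printed for both genes to show that a read from here cannot be placed.
U2AF1: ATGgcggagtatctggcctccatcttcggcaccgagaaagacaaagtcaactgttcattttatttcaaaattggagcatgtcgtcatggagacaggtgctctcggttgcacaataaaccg
U2AF1L5: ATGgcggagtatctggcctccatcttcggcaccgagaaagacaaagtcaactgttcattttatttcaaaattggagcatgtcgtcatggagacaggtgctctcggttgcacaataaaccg

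Since reads that map to several places were left out, U2AF1 had only 32, 43 and 131 counts in the WT libraries, 28, 24 and 20 in the KO libraries and 284, 156 and 61 in the OE libraries, and U2AF1L5 had 27, 34 and 37, then 38, 31 and 31, then 41, 57 and 227. OE replicates 1 and 2 were high for U2AF1 and OE replicate 3 for U2AF1L5. The OE against KO value of U2AF1 was 2.86 ± 0.55, adjusted p = 0.000734. KO against WT (-1.58 (adjusted p = 0.0656)) and OE against WT (1.28 (adjusted p = 0.0746)) missed the threshold. KO against WT passed without WT replicate 1 (adjusted p = 0.0378) or any 1 OE replicate (0.0168 to 0.0499), and OE against WT without WT replicate 3 (0.0141) or OE replicate 3 (0.0101). Summed over both copies, the counts were 59, 77 and 168 for the WT libraries, 66, 55 and 51 for the KO libraries and 325, 213 and 288 for the OE libraries, and OE against WT was 1.38 (adjusted p = 0.00348). In the sum all OE libraries were above all others.

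Transcript length moved with the OE label. The slope of log2 CPM, relative to the mean over the groups, on log2 summed exon length was 0.056, -0.053 and 0.10 for the WT libraries, 0.042, 0.085 and 0.13 for the KO libraries and -0.075, -0.20 and -0.083 for the OE libraries. Longer genes thus had lower values in every OE library and also in WT replicate 2, and every OE slope was below every WT and KO slope. After an offset that removes this trend, the SR median in OE against WT was 0.39, as before, and the hnRNP median was -0.020 in place of -0.087. With the longest coding transcript as the length, the medians were 0.43 and -0.075. The ratio of SR to hnRNP counts given above was not corrected. Within each group it was highest in the library with the lowest slope, at 0.211 in WT replicate 2, 0.200 in KO replicate 1 and 0.286 in OE replicate 2. The part of length in this ratio was not tested. Of the 13 members called in OE against WT, 9 were called under both length measures tried, summed exons and the longest coding transcript: SRSF1, SRSF2, SRSF3, SRSF7, TRA2B, HNRNPH3, HNRNPM, HNRNPUL1 and PTBP2. HNRNPU, with 22512 bases of annotated exons but 6858 in its longest coding transcript, went to -0.13 (adjusted p = 0.36) with the former and -0.33 (adjusted p = 0.00828) with the latter. HNRNPA3 went to -0.19 (adjusted p = 0.121) and HNRNPUL2 to -0.36 (adjusted p = 0.0654) with the longest coding transcript, and SRSF8 to 0.36 (adjusted p = 0.0556) with summed exons. The correction also added calls in OE against WT. SRSF10 was added under both measures, SRSF4 and U2AF1 by summed exons alone, and SRSF6, HNRNPR (both higher) and HNRNPL (lower) by the longest coding transcript alone.

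In OE against KO, 10 of 20 calls were kept under both measures. They were those of U2AF1, SRSF1, SRSF6, SRSF7, SRSF12, HNRNPA3, HNRNPAB, HNRNPH3, HNRNPUL1 and HNRNPUL2. SF3B1 went to -0.10 (adjusted p = 0.445) with summed exons and -0.075 (adjusted p = 0.561) with the longest coding transcript, and HNRNPC to -0.085 (adjusted p = 0.575) and -0.092 (adjusted p = 0.505). HNRNPA0 and HNRNPR were lost under both as well, HNRNPR at -0.037 (adjusted p = 0.778) with summed exons. With summed exons SRSF2 went to 0.23 (adjusted p = 0.0687), SRSF4 to -0.13 (adjusted p = 0.364), HNRNPA2B1 to -0.067 (adjusted p = 0.611), HNRNPL to -0.20 (adjusted p = 0.135) and HNRNPU to -0.11 (adjusted p = 0.388), and with the longest coding transcript HNRNPM went to 0.17 (adjusted p = 0.131). Calls added under both measures were SRSF3 (higher, 0.50 (adjusted p = 0.00609) and 0.48 (adjusted p = 0.00499)) and U2AF2 (lower, -0.30 (adjusted p = 0.0286) and -0.26 (adjusted p = 0.0373)). Summed exons alone added SRSF10, SRSF11 and TRA2B as higher and SRSF8 as lower, and the longest coding transcript alone added SRSF9 as lower. All 4 calls in KO against WT were kept, and U2AF1 was added as lower under both measures, HNRNPA3 as higher by summed exons, and HNRNPH3 and SRSF10 as higher by the longest coding transcript.

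**Figure D5:**
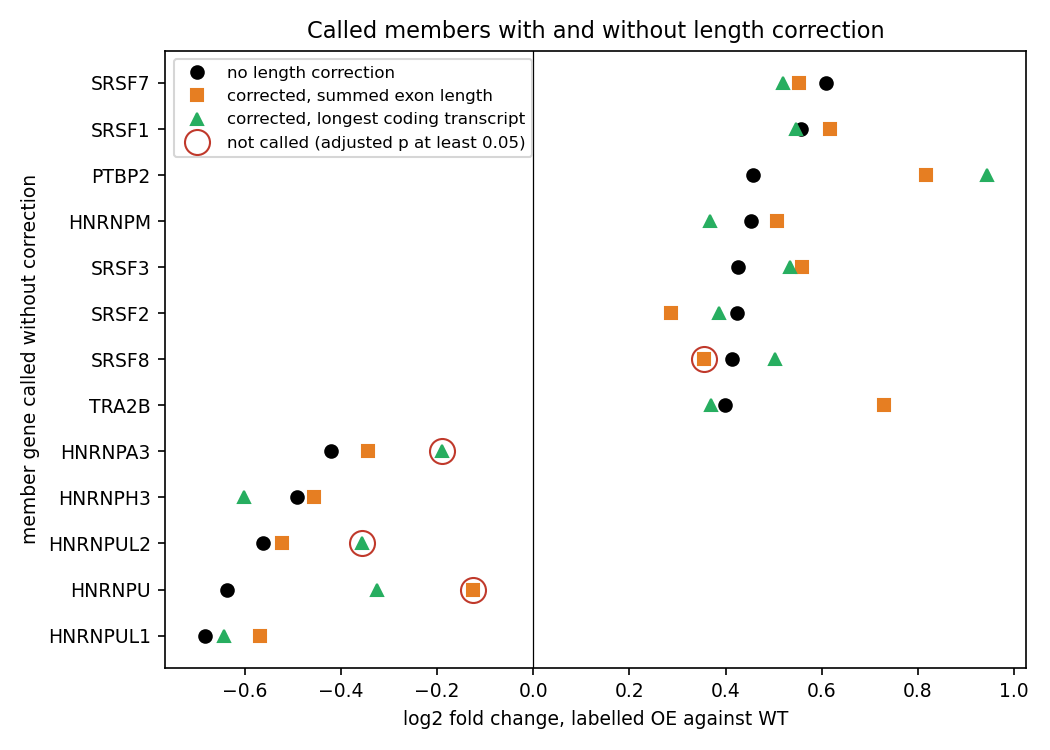
Log2 fold change in OE against WT (x axis) of the 13 members called without length correction (y axis), without correction (black), corrected by summed exon length (orange) and by the longest coding transcript (green), with red rings where the corrected value was not called. The 8 higher members stay right of zero and the 5 lower members left of it, and the rings mark SRSF8, HNRNPA3, HNRNPUL2 and HNRNPU.

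A feature that the choice by name did not use was more frequent among the members. In the GENCODE 29 annotation, 31 of the 41 tested members (75.6%) have at least 1 transcript annotated as a target of nonsense-mediated decay, against 42.7% of the 12258 protein-coding genes tested. It was 12 of 12 for the SR genes, 2 of 2 for TRA2, 3 of 3 for the 3′ splice site genes and 14 of 24 (58.3%) for the hnRNP genes. The median number of annotated transcripts was 11 for the members, 8.5 for the SR genes and 8 for all protein-coding genes tested. The part of this number in the shares was not tested. The counts are sums over a gene's exons and do not tell productive from decay-bound transcripts. A rise here is therefore a rise of the sum.

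Promoter windows from RefSeq (GRCh38.p14, 250 bases before to 50 after a start) were found for 41 members, with 57 entries. These are not the 41 tested members. The uncounted HNRNPCL1, HNRNPCL2, HNRNPCL4 and HNRNPUL2-BSCL2 have windows, and the tested HNRNPA1, HNRNPA1L3, SRSF2 and TRA2A have none. Some windows overlap, such as those of SRSF8 and those of HNRNPUL2 and HNRNPUL2-BSCL2, so a site can count more than once. Median GC content was 64.7% in member windows and 58.7% in all windows. On either strand the CCAAT box, the site of NF-Y with the letters CCAAT, was in 23 of 38 hnRNP windows (60.5%) and 3 of 14 SR windows (21.4%), and in 34.6% of all 35116 windows. The GC box of the SP family, searched as GGGCGG on both strands, was in 68.4% of hnRNP, 42.9% of SR and 45.0% of all windows. The core of the CREB and ATF site, searched as TGACG, was in 39.5% of hnRNP, 42.9% of SR and 24.6% of all windows. An ETS motif, searched as CGGAAG, was in 34.2% of hnRNP, 42.9% of SR and 19.5% of all windows. The NRF1 core, searched as GCATGCGC, was in 2.63% of hnRNP, 14.3% of SR and 3.05% of all windows. No motif contains another. A match is a description of the letters and not a bound site.

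As examples, windows with a single entry are printed for 2 genes higher and 2 genes lower in OE than in both other groups, with every match to the 5 motifs in capitals. SRSF1 (chr17:58007197-58007496, minus strand) and HNRNPM (chr19:8444725-8445024, plus strand) rose. HNRNPA3 (chr2:177212544-177212843, plus strand) and HNRNPUL2 (chr11:62727408-62727707, minus strand) fell.
SRSF1: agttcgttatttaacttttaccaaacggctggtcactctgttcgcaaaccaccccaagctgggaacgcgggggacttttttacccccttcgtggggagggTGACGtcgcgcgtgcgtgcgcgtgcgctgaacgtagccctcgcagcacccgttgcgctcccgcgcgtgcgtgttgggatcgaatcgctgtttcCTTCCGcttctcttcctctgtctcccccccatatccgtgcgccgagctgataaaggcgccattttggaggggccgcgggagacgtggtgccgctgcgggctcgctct
HNRNPM: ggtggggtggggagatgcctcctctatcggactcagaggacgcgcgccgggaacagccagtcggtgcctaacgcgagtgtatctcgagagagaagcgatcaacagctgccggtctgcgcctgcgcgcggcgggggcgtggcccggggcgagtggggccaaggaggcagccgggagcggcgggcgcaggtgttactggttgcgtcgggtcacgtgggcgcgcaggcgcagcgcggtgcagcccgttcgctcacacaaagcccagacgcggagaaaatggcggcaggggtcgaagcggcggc
HNRNPA3: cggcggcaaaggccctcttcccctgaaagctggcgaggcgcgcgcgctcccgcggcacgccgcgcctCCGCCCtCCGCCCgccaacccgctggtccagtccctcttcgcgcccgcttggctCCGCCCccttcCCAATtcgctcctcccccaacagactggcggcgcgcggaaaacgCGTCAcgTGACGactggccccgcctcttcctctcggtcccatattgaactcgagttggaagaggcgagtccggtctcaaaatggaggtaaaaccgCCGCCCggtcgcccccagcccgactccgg
HNRNPUL2: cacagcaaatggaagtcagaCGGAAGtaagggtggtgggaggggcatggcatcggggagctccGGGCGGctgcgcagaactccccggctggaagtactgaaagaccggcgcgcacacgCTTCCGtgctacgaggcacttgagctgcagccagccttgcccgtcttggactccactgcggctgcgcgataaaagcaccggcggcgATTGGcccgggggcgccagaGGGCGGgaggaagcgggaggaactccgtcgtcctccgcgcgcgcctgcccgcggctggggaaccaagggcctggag

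The SRSF1 window holds 1 CREB and ATF core and 1 ETS motif, and the HNRNPM window holds no match. HNRNPA3 has 1 CCAAT box, 4 GC boxes and 2 CREB and ATF cores, and HNRNPUL2 has 1 CCAAT box, 2 GC boxes and 2 ETS motifs.

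The other parts of the splicing machinery were followed in lists of genes. Chromosome neighbours were computed for the members alone. Whether genes on these lists lie in neighbourhoods that moved in KO, as around HNRNPAB, was not examined. Their counts stand beside 9.16% of all genes higher and 9.6% lower in KO against WT, and 9.65% and 11% in OE against WT. Of 25 U1, U2 and Sm protein genes, which build the particles that first mark an intron, 8 rose and 1 fell in OE against WT, with a median of 0.29 (0.17 after the exon-length correction). SNRPE (0.75 ± 0.14), SF3B5 (0.81 ± 0.16), SNRPF (0.75 ± 0.17) and SNRPC (0.56 ± 0.15) had the smallest adjusted p. In KO against WT, 1 rose and 2 fell, the higher being SNRPA1 (0.70 ± 0.16) and the lower SNRPB2 (-0.96 ± 0.16) and SNRPB (-0.60 ± 0.18). Of 24 tri-snRNP and catalytic step genes, 3 rose and 4 fell in OE against WT, which is near those shares, with TXNL4A at 0.77 ± 0.17 and DHX8 at -0.52 ± 0.14. In KO against WT, AQR, a helicase that binds introns, rose (0.93 ± 0.18) and CRNKL1 fell (-1.03 ± 0.14).

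SR-related proteins carry arginine-serine stretches without the SR protein layout. Of 22, 1 rose and 7 fell in OE against WT, with a median of -0.24 (-0.098 after the correction), and none was called in KO against WT. SRRM2, a core of nuclear speckles, was at -1.52 ± 0.24, THRAP3 at -0.80 ± 0.12, ACIN1 at -0.75 ± 0.13 and SRRM1 at -0.87 ± 0.17. Among 10 tested kinases, phosphatases and importins of SR proteins, 1 rose (PPP1CA, 0.54 ± 0.13) and 1 fell (DYRK1A, -0.44 ± 0.13) in OE, and CLK4 fell in KO (-1.51 ± 0.44).

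Of 18 genes of nonsense-mediated decay, 2 rose and 5 fell in OE against WT, with a median of -0.22 (-0.18 after the correction). The helicase UPF1 (-1.01 ± 0.13), its partner UPF2 (-0.69 ± 0.15), the kinase SMG1 (-1.01 ± 0.26) and SMG6 (-1.02 ± 0.28) were among those lower. Among those called in KO, PNRC2 was higher (0.52 ± 0.12) and UPF3A lower (-0.44 ± 0.12). Of 21 tested hnRNP-like genes without the prefix, 2 rose and 2 fell in OE, also near the shares of all genes, with the cold-inducible RBM3 at 1.39 ± 0.15, TARDBP at 0.40 ± 0.13, KHSRP at -0.59 ± 0.14 and PSPC1 at -0.43 ± 0.12. In KO, RBM3 (-0.87 ± 0.16) and CIRBP (-0.78 ± 0.13) both fell.

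Among 18 tested regulators of cell-type splicing, 0 rose and 4 fell in OE against WT, namely SRRM4 (-1.72 ± 0.40), NOVA2 (-0.86 ± 0.22), MBNL3 (-0.71 ± 0.19) and RBM5 (-0.43 ± 0.14). In KO, MBNL3 rose (0.65 ± 0.19), and KHDRBS3 (-0.62 ± 0.14) and SRRM4 (-1.25 ± 0.38) fell. Of 6 noncoding RNAs kept in the nucleus, the speckle RNA MALAT1 rose in OE (0.91 ± 0.28), MEG3 (-1.02 ± 0.12) and the paraspeckle RNA NEAT1 (-0.84 ± 0.24) fell, and none was called in KO. The median over the 6 was -0.61, and -0.20 after the exon-length correction.

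With the correction by summed exon length, DYRK1A turned to 0.10 in OE against WT. In the same comparison and under the same correction, the named genes that moved by over 1.5 times were SF3B5 (0.48), SNRPC (0.31), DHX8 (-0.25), SMG1 (-0.47), MBNL3 (-0.40), RBM5 (-0.17), MEG3 (-0.51) and NEAT1 (-0.38).

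Across the lists, OE against KO had 11 of 25 U1, U2 and Sm genes higher and 3 lower, 1 of 22 SR-related genes higher and 10 lower, and 4 of 18 decay genes higher and 7 lower. Of 24 tri-snRNP and catalytic step genes, 8 were higher and 7 lower. Of 10 kinases, phosphatases and importins, 1 was higher and 3 lower, and of 21 hnRNP-like genes, 2 and 3. Of 18 cell-type regulators, 2 were higher and 5 lower, and of 6 nuclear noncoding RNAs, 1 and 4. The rate of calls over all genes in that comparison is 19% in the one direction and 20.6% in the other.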

How the data were processed

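RNA of 9 H295R libraries (3 WT, 3 KO, 3 OE) was counted by the authors. The deposited values are whole-number read counts per gene with the summed exon length in bases, made with featureCounts 1.5.2 on Ensembl release 101 of GRCh38, per the file headers. The command line gives only annotation and output options, under which strand is ignored and reads are skipped when they map more than once or touch more than 1 gene. FastQC, HISAT2 1.03, Subread, featureCounts 0.1.0 and DESeq2 are named in the submitters' processing notes, whose featureCounts version differs from the header's.

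Counts were tested with edgeR 4.0.16 (R 4.3.3, TMM scaling, a filterByExpr minimum of 10 counts, quasi-likelihood F test, all 9 libraries in 1 fit). The fit had 6 residual degrees of freedom and a common biological variation of 0.15. Adjusted p-values are Benjamini-Hochberg over 14150 genes. CPM and log2 fold changes (with SE) were computed from the counts. DESeq2 1.42.0, limma 3.58.1 (voom), other scalings, filters, subsets of libraries, a replicate block and length corrections were tried as alternatives. The length correction with the longest coding transcript and the U2AF1 sum were added after the data were seen. The fit was tested on simulated data. Replicates of a group differed by more than counting noise (chi-square over genes), so none was taken for 1 library deposited in duplicate.

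Members and gene lists were chosen with earlier results of these data known. Values in every library are given for up to 8 called members per comparison, by size of change, and for U2AF1, SF3B1, PTBP1, PTBP2, TRA2A, TRA2B, SRSF1 and HNRNPA1 in any case. HNRNPH1, SRSF2, SRSF3 and SRSF6 were added after their values were seen. Of each list, up to 4 called genes with the smallest adjusted p are named, apart from 1 result that is not reported here. Symbols were found for 58536 of 60671 identifiers. Protein sequences were not analysed here.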

Additional observations from a re-analysis of the deposited data

How the results depend on the processing

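Over 54 named results and 21 settings, 1016 values kept direction and side of the threshold, 75 kept direction but were no longer called, 26 became called with the same sign and 17 changed sign. Of the 17, 2 had been called, HNRNPA0 (0.12, adjusted p = 0.41) and HNRNPR (0.15, 0.186) in OE against KO, under the length correction with the longest coding transcript. The other 15 were called neither before nor after. With summed exon length they were SF3B1 in OE against WT (0.15) and, in OE against KO, TRA2A (-0.055) and PTBP2 (0.12). With the longest coding transcript they were SF3B1 (0.16) and HNRNPA1 (0.038) in OE against WT, and TRA2A (-0.10) and PTBP2 (0.32) in OE against KO. PTBP1 in KO against WT was -0.019 with library totals alone, -0.015 with upper-quartile scaling, -0.073 without WT replicate 2 and -0.073 without the second WT and OE libraries. HNRNPA1 in OE against KO was -0.036 with library totals alone, -0.0031 without OE replicate 2 and -0.0035 without the second WT and OE libraries, and SF3B1 in OE against WT was 0.012 without OE replicate 2. When 1 library was left out, these ran from -0.073 to 0.12, -0.0031 to 0.092 and -0.17 to 0.012. The causes were not tested.

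In KO against WT, the 3 members called higher became 6 with the replicate block, 6 without the second WT and second OE libraries, 5 with the longest coding transcript, and 3 to 5 when 1 library was left out. The share of all genes called higher moved too, from 9.16% to 11.5%, 10.1% and 11.7% in those settings, and 6.06% to 10.8% when 1 library was left out. The 1 called lower became 2 with no low-count filter, with only the 2 groups compared, with the replicate block, with summed exon length, without the second WT and OE libraries and with the longest coding transcript, and 1 to 2 when 1 library was left out. Of all genes, 9.6% were lower in the main fit and, in the same order, 5.32%, 10.2%, 11.4%, 11.2%, 10.9% and 12.2%. When 1 library was left out, 6.10% to 11.3% were. In OE against WT, the 8 called higher became 3 with library totals alone, 5 with only the 2 groups compared and 3 to 9 when 1 library was left out. All genes called higher went from 9.65% to 5.41%, 7.43% and 3.35% to 12.4%. The 5 called lower became 11 with library totals alone, where 15.5% of all genes were lower, beside 11% in the main fit. In OE against KO, the 8 called higher were 5 to 9 when 1 library was left out, where 14.2% to 20.1% of all genes were, beside 19% in the main fit. The 12 called lower became 6 with summed exon length, where 18.1% of all genes were lower, beside 20.6%.

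Whether replicate numbers pair the samples was not settled. Deviations of differently numbered libraries from different groups correlated from -0.28 to 0.22. The correlation of deviations between same-numbered libraries was 0.060, -0.035 and 0.17 for WT and KO, 0.013, 0.25 and 0.14 for WT and OE, and -0.14, -0.0075 and 0.13 for KO and OE. The replicate block added calls over all genes, from 1296 to 1622 higher and 1359 to 1613 lower in KO against WT.

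Over all genes, library totals alone gave 765 higher and 2190 lower in OE against WT, in place of 1365 and 1559. In OE against KO, upper-quartile scaling gave 3105 higher and 2531 lower, in place of 2692 and 2920. At these library totals, U2AF1 and SRSF12 rest on few reads.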
